A study of Mus musculus with 6 samples.

Results

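The genes described here are 10 genes of endoplasmic reticulum (ER) stress and protein folding: Hspa5, Hsp90b1, Calr, Sdf2l1, Dnajb9, Pdia4, Pdia6, Herpud1, Atf4 and Ddit3. They were chosen by name, as the probe sets whose platform annotation gives 1 of these gene symbols, and all 10 were found among the 12393 genes of the array. They had 19 of the 22626 probe sets that are no controls. RNA was measured on 6 single-colour arrays from CD4+CD25+ regulatory T cells (Treg), the helper T cell subset that restrains immune responses, separated magnetically. The groups were 3 arrays from MBD2-/- mice, which lack a protein that binds methylated DNA, and 3 arrays from WT mice, all on a Balb/c background. Age, sex, tissue of origin and whether mice were pooled are not stated in the labels, and the submitters described the samples as independent. Levels are log2 expression values made by the authors with RMA, so a step of 1 is a factor of 2, and differences are MBD2-/- (knockout) minus WT.

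Proteins that enter the ER are folded there by chaperones and by enzymes that form disulfide bonds. When unfolded proteins build up, membrane sensors start the unfolded protein response (UPR): Ern1 activates the transcription factor Xbp1 by splicing, Atf6 is cut free to enter the nucleus, and Eif2ak3 slows translation while Atf4 is made. Xbp1 and Atf6 raise chaperones and degradation factors, and Atf4 raises amino acid genes and Ddit3, which encodes CHOP. Secretory cells such as plasma cells carry a high level of the chaperone arm as part of their normal state.

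The promoters of the chaperone genes carry known response elements, so the windows that hold one are shown. Each is the 220 bases before the gene start annotated by RefSeq on build GRCm38.p6, read 5' to 3' on the strand of the gene. Capitals mark a match to the ER stress response element ERSE, which is CCAAT, then 9 bases of any kind, then CCACG. In Herpud1 they mark the shorter ERSE-II, which is ATTGG, then 1 base of any kind, then CCACG. Both strands were searched, and a match on the strand opposite the gene reads in reverse complement. Sdf2l1 is shown as a window without a match, since it had the largest rise of the 10 once WT replicate 3 and knockout replicate 2 were left out.
Hspa5, chr2:34771870-34772089 (plus strand): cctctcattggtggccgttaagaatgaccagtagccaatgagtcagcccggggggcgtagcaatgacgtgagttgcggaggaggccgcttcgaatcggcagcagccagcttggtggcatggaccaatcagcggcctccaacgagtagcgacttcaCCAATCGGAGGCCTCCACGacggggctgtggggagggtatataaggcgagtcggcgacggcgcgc
Hsp90b1, chr10:86705445-86705664 (minus strand): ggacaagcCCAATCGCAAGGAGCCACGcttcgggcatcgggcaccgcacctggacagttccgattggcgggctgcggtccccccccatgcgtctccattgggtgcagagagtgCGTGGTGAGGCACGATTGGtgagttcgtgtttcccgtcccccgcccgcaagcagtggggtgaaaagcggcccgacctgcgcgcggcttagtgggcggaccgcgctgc
Calr, chr8:84846932-84847151 (minus strand): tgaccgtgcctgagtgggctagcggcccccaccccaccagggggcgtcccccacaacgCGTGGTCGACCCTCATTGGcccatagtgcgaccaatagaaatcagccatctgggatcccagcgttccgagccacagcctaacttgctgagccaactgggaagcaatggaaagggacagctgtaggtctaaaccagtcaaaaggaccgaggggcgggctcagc
Pdia6, chr12:17266369-17266588 (plus strand): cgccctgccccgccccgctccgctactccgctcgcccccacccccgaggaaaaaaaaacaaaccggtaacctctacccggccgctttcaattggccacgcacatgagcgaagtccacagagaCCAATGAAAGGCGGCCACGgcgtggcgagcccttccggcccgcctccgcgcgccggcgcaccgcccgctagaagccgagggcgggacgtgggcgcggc
Herpud1, chr8:94386209-94386428 (plus strand): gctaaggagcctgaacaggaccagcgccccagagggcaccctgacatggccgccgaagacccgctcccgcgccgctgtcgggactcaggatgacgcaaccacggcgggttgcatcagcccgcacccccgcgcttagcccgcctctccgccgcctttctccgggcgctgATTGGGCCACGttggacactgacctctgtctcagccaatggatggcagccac
Sdf2l1, chr16:17132384-17132603 (minus strand): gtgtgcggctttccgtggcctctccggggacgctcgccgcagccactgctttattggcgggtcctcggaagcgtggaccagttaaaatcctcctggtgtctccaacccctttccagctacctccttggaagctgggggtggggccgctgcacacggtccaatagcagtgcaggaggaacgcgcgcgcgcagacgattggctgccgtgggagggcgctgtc
All 10 genes had a promoter window of 300 bases, 250 before the start and 50 after it. ERSE was found in 4 of them: Hspa5, Hsp90b1 (which held 2 matches), Calr and Pdia6. The same letters occurred in 39 of the 32851 mouse promoter windows (0.119%). ERSE-II was found in Herpud1 alone of the 10 and in 12 windows in all (0.0365%). Herpud1 also held the ATF4-type element TGATGNAA, which 3.97% of windows held. It lay on the strand opposite the gene and did not overlap ERSE-II. The element TGACGTGG, called UPRE here, was in 0 of the 10 and in 0.676% of all windows. A match is a description of letters, and a window without one shows only that these letters are not in it.

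**Figure D1:**
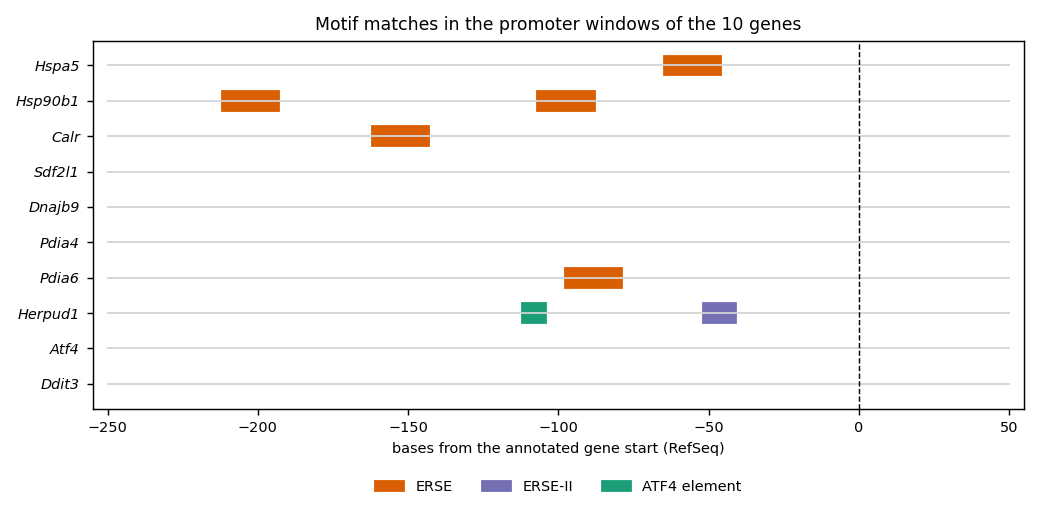
Positions of motif matches in the promoter windows of the 10 genes, as bases from the annotated start (0, dashed line). Orange bars are ERSE, the purple bar is ERSE-II and the green bar is the ATF4-type element. All 7 matches lie before the start, between -212 and -42, and 5 of the 10 windows hold none.

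The arrays were not alike. WT replicate 3 stood apart, with Pearson correlations across probe sets of 0.749 to 0.767 with the other arrays, which correlated with each other at 0.956 to 0.997. Its values were also compressed, with an SD over probe sets of 1.374, against 1.790 to 1.837 on the other arrays. Its lower quartile was higher (5.001, against 4.555 to 4.618) and its upper quartile lower (6.639, against 7.203 to 7.315). Among those other arrays the lowest correlation belonged to knockout replicate 2. Results are therefore given for all 6 arrays, for the 5 arrays without WT replicate 3, and for the 4 arrays without WT replicate 3 and knockout replicate 2. Mbd2 itself, on its brighter probe set, was at 5.93, 5.71 and 6.14 in knockout replicates 1, 2 and 3, against 8.80, 8.66 and 6.93 in the WT arrays, with no overlap. The labels do not say whether that probe set lies in the deleted part. Markers of T cells and Treg had a mean log2 level of 8.92, 8.12 and 8.99 in knockout, against 9.49, 9.53 and 8.31 in WT, so markers of the labelled cell type were measured on every array.

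Of the 8 genes for chaperones, disulfide isomerases and degradation, 5 rose in the 4-array fit and 3 did not pass (Hspa5, Calr and Dnajb9). The 2 transcription factor genes, Atf4 and Ddit3, did not pass in any of these fits. Without WT replicate 3 their brightest probe sets had negative differences, while the second tested probe set of Atf4 had small positive ones. No gene passed in the fits of 6 or 5 arrays. With all 6 arrays the difference was above 0 for 10 of the 10 genes, with a median of 1.23 beside 0.15 over all 13576 tested probe sets. These medians do not compare probe sets of like level, and bright probe sets tended to read low on WT replicate 3. In WT replicate 1 the 10 genes averaged 9.18 and all tested probe sets 7.17. None of the 10 genes passed an adjusted p of 0.05 in limma (Benjamini-Hochberg over all tested probe sets), in either direction, where 0.103% of all probe sets passed as higher. At an unadjusted p under 0.05, 5 genes were higher, beside 3.48% of all probe sets. Knockout and WT arrays did not overlap for 6 of the 10 genes, all higher in knockout, beside 10.4% of all probe sets. Those 6 were Hspa5, Hsp90b1, Sdf2l1, Pdia4, Pdia6 and Herpud1. In the 5-array fit again 0 genes passed, beside 0.670% of probe sets higher and 0.729% lower, and the median was 0.61. At an unadjusted p under 0.05, 3 of them were higher there (Hsp90b1, Sdf2l1 and Pdia6), beside 6.95% of probe sets. In the 4-array fit 5 genes rose and 0 fell, beside 8.37% of probe sets higher and 10.3% lower, and the median was 0.31 beside -0.03 over all probe sets. The 5 were Herpud1, Sdf2l1, Hsp90b1, Pdia6 and Pdia4.

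**Figure D2:**
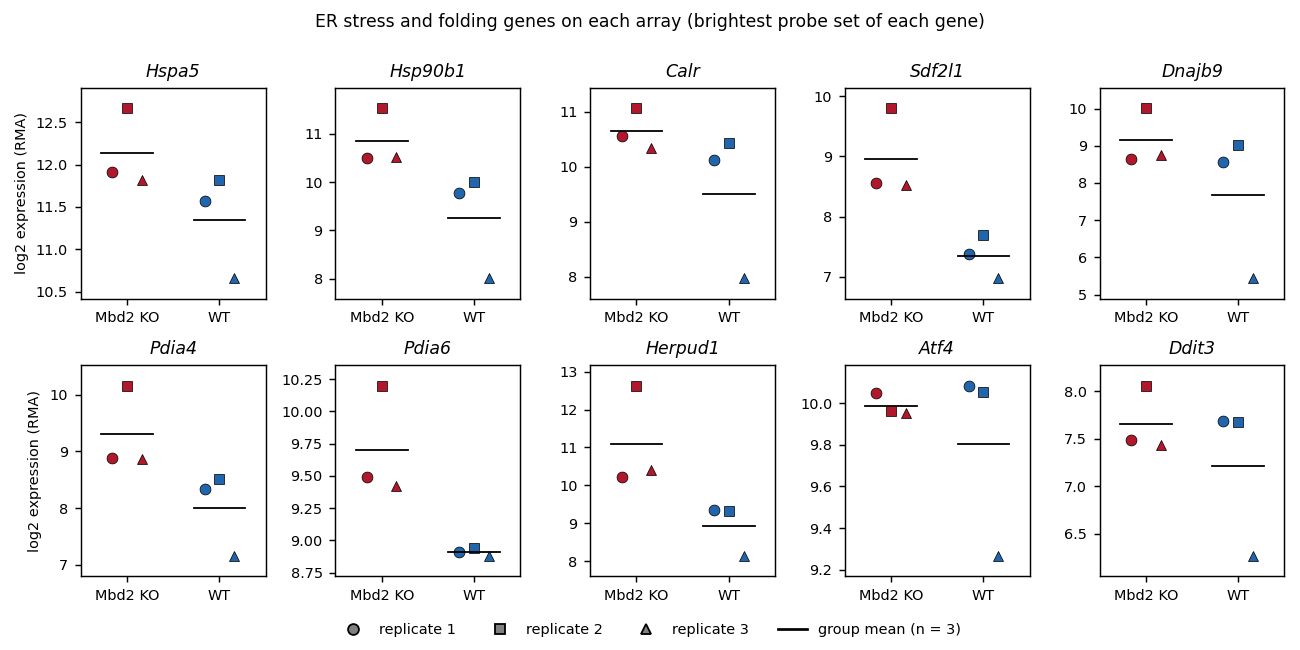
Log2 expression of the 10 genes on each array, on the brightest probe set of each gene, with knockout arrays in red on the left of each panel and WT arrays in blue on the right. Lines are group means (n = 3). Knockout replicate 2 (red square) is the highest array for 9 of the 10 genes and WT replicate 3 (blue triangle) the lowest for all 10.

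Hspa5 encodes BiP, the abundant ER chaperone that binds unfolded chains and holds the sensors inactive. Its brighter probe set gave 11.91, 12.67 and 11.82 in knockout replicates 1, 2 and 3, against 11.57, 11.82 and 10.66 in the WT arrays. The groups did not overlap, but knockout replicate 3 and WT replicate 2 lay within 0.01 of each other. The log2 difference was 0.79 with 6 arrays (SE 0.40, limma adjusted p = 0.829). With 4 arrays it was 0.17 (SE 0.10, limma adjusted p = 0.279). On the second probe set it was 0.99 with 6 arrays and 0.23 with 4 (limma adjusted p = 0.829 and 0.0845).

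Hsp90b1 encodes the ER paralogue of the heat shock protein HSP90, which folds integrins and Toll-like receptors. It was at 10.50, 11.54 and 10.52 in knockout, against 9.79, 10.01 and 8.01 in WT. All knockout arrays lay above all WT arrays on this probe set. The difference was 1.59 with 6 arrays (SE 0.60, limma adjusted p = 0.829), 0.96 with 5 (limma adjusted p = 0.181) and 0.62 with 4, a 1.53-fold rise (SE 0.10, limma adjusted p = 0.00849). A dimmer probe set had the same sign in each fit, but its groups overlapped, knockout replicate 3 being at 9.73 and WT replicate 2 at 9.86, and it did not pass with 4 arrays (0.53, limma adjusted p = 0.225).

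Calr encodes calreticulin, the calcium-binding lectin chaperone of glycoproteins. Its brightest probe set gave 10.55, 11.07 and 10.34 in knockout, against 10.11, 10.43 and 7.97 in WT. WT replicate 2 was above knockout replicate 3 on it, so the groups overlapped there. Its difference of 1.15 with 6 arrays was 0.17 with 4 (95% interval -0.14 to 0.48, limma adjusted p = 0.385). On the other 2 probe sets the groups did not overlap, the lowest knockout array being at 9.91 and 9.81 and the highest WT array at 9.76 and 9.77. Their differences with 4 arrays were 0.29 and 0.22 and did not pass either (limma adjusted p = 0.0821 and 0.2).

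Sdf2l1, a subunit of the chaperone complex around BiP, was at 8.55, 9.80 and 8.53 in knockout, against 7.38, 7.70 and 6.98 in WT. The lowest knockout array was above the highest WT array by more than the whole range of the WT arrays. Its difference was 1.61 with 6 arrays (95% interval 0.61 to 2.61), the smallest p of the 10 genes (unadjusted p = 0.00722, limma adjusted p = 0.628). It was 1.42 with 5 arrays (limma adjusted p = 0.136) and 1.002 with 4, a 2.003-fold rise (SE 0.11, limma adjusted p = 0.00292).

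Dnajb9 encodes a J-domain co-chaperone of BiP and is a known target of Xbp1. It was at 8.65, 10.02 and 8.77 in knockout, against 8.56, 9.02 and 5.44 in WT. Knockout replicates 1 and 3 lay between WT replicates 1 and 2, and only knockout replicate 2 was above every WT array. The difference of 1.47 with 6 arrays therefore rested on 2 arrays, and with 4 arrays it was -0.08 (95% interval -0.44 to 0.28, limma adjusted p = 0.742).

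Pdia4 and Pdia6 encode protein disulfide isomerases, which make and rearrange disulfide bonds. Pdia4 was at 8.89, 10.16 and 8.87 in knockout, against 8.33, 8.51 and 7.16 in WT. Its difference was 1.31 with 6 arrays (SE 0.51, limma adjusted p = 0.829), and with 4 arrays it rose by 0.46 (SE 0.09, limma adjusted p = 0.0167). The groups did not overlap. Pdia6, whose groups did not overlap either, was at 9.49, 10.20 and 9.42 in knockout, against 8.91, 8.94 and 8.88 in WT. Here WT replicate 3 was level with the other WT arrays, and the WT group had an SD of 0.03, against 0.43 in knockout (n = 3 each). The difference was 0.80 with 6 arrays (limma adjusted p = 0.829), 0.78 with 5 (limma adjusted p = 0.154) and 0.53 with 4 (SE 0.07, limma adjusted p = 0.00615). A second probe set of each gene was dim, with means of 4.62 in knockout and 4.70 in WT for Pdia4 and of 4.86 and 4.71 for Pdia6, under the level of 5.18 below which probe sets were not tested.

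Herpud1 encodes a membrane protein of ER-associated degradation, the route by which misfolded proteins leave the ER for the proteasome. It had the largest difference of the 10 with 6 arrays. The brighter probe set gave 10.23, 12.64 and 10.39 in knockout, against 9.34, 9.33 and 8.14 in WT. The dimmer one gave 8.18, 10.76 and 8.35 in knockout, against 7.21, 7.38 and 5.20 in WT. On both, every knockout array was above every WT array, and knockout replicate 2 was more than 2 log2 units above the other knockout arrays. The differences with 6 arrays were 2.15 (SE 0.71) and 2.50 (SE 0.88), each with a limma adjusted p = 0.829. In the 4-array fit they were 0.98 (SE 0.09, limma adjusted p = 0.0011) and 0.97 (SE 0.10, limma adjusted p = 0.00195), a 1.97-fold rise on the brighter one.

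Atf4 encodes the transcription factor of the translation arm and is itself regulated largely at translation, which these arrays do not measure. Its brightest probe set gave 10.05, 9.96 and 9.96 in knockout, against 10.09, 10.06 and 9.27 in WT. Leaving out WT replicate 3 put every knockout array below the remaining WT arrays, with a difference of -0.08 (95% interval -0.30 to 0.14, limma adjusted p = 0.624). With 4 arrays it was -0.07 (95% interval -0.25 to 0.12, limma adjusted p = 0.573). A second probe set was at 0.10 with 5 arrays and at 0.05 with 4. Over all tested probe sets the medians of these fits were -0.06 and -0.03. Another, dim probe set of Atf4 was at 4.58, 4.68 and 4.58 in knockout, against 4.62, 4.39 and 7.23 in WT, and it was not tested.

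Ddit3, the CHOP gene, was at 7.49, 8.06 and 7.43 in knockout, against 7.69, 7.68 and 6.27 in WT. Knockout replicates 1 and 3 were below WT replicates 1 and 2, and the sign of the difference depended on the arrays. It was 0.45 with 6 arrays (limma adjusted p = 0.829), -0.03 with 5 (limma adjusted p = 0.953) and -0.23 with 4 (95% interval -0.40 to -0.05), where it did not pass after adjustment (limma adjusted p = 0.0804).

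**Figure D3:**
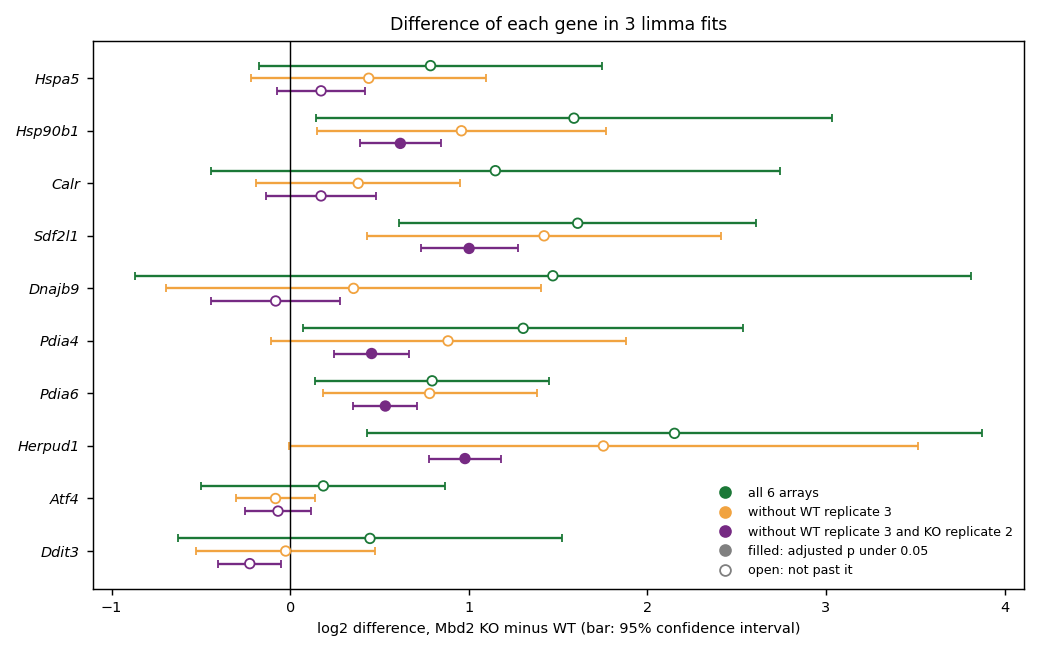
Log2 difference, knockout minus WT, of each gene's brightest probe set in the fits of 6, 5 and 4 arrays, with 95% confidence intervals. Filled points passed an adjusted p of 0.05. The 5 filled points are those of Hsp90b1, Sdf2l1, Pdia4, Pdia6 and Herpud1 without WT replicate 3 and knockout replicate 2, between 0.46 and 1.002, while Atf4 and Ddit3 lie at or below 0 in the fits without WT replicate 3.

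Single arrays set much of the size of these differences. Knockout replicate 2 exceeded the mean of knockout replicates 1 and 3 by a median of 0.91 over the 10 genes, beside -0.10 over all tested probe sets. The excess was 2.32 for Herpud1, which 0.287% of all tested probe sets reached, and 1.31, 1.28 and 1.26 for Dnajb9, Pdia4 and Sdf2l1. Atf4 had none (-0.04). WT replicate 3 lay below the mean of WT replicates 1 and 2, by a median difference of -1.23 over the 10 genes and of -0.74 over all tested probe sets. That deficit ran from -3.35 for Dnajb9 to -0.04 for Pdia6. The 10 genes were brighter than the average tested probe set, so their median deficit and that of all probe sets do not compare like levels.

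Markers of other cell types differed between the groups too. The plasma cell list, of 7 measured genes, had a mean log2 level of 8.60, 10.22 and 8.66 in knockout, against 7.69, 8.14 and 6.59 in WT. This mean was thus highest in knockout replicate 2 and lowest in WT replicate 3, the same arrays as for the mean of the ER genes. Not each marker followed it: Sdc1 was at 5.37, 5.80 and 6.93 in WT and Tnfrsf17 at 4.99, 5.57 and 6.20, both highest in WT replicate 3. Of these 7 markers, 7 were above 0 with 6 arrays (range 1.05 to 3.17) and 0 passed. With 4 arrays 5 rose (Jchain, Sdc1, Tnfrsf17, Pou2af1 and Xbp1), beside 8.37% of all probe sets. Xbp1 is a UPR gene too and is counted again, on the same probe set, in the UPR list below. Jchain, the joining chain of secreted antibodies, was at 13.00, 13.77 and 13.03 in knockout, against 11.85, 12.48 and 9.86 in WT, so it gave a bright signal in both groups. Pou2af1, a B-lineage coactivator, was at 8.51, 10.61 and 8.71 in knockout, against 6.62, 7.36 and 4.35 in WT. None of the 7 was under the level of 5.18 in the mean of either group. B cell markers averaged 7.78, 8.38 and 7.64 in knockout, against 6.20, 6.85 and 6.04 in WT, with 9 of 10 tested genes rising with 4 arrays. CD8 T cell and NK cell markers averaged 7.33, 8.05 and 7.04 in knockout, against 6.80, 6.93 and 6.16 in WT, with 1 of 8 rising. The means of these lists too were highest in knockout replicate 2 and lowest in WT replicate 3. Single genes differed, and among WT arrays Ebf1 (5.22), Fcrla (5.66), Cd8a (6.48) and Prf1 (7.25) were highest in WT replicate 3. So was the B cell gene Pax5, at 4.797, 4.833 and 4.755 in knockout, against 4.646, 4.523 and 6.405 in WT. It was too dim to be tested and is not among the 10 tested B cell genes. Granulocyte markers followed another order, at 9.59, 9.58 and 9.30 in knockout, against 5.53, 6.23 and 5.73 in WT. They had the widest gap between the groups of these lists, with a median difference of 4.45 with 4 arrays, where 13 of 13 rose, and 5 of 13 rose with all 6 arrays. Myeloid markers averaged 6.78, 7.95 and 6.69 in knockout, against 4.99, 5.21 and 5.87 in WT, so WT replicate 3 was the highest WT array, and 9 of 9 rose with 4 arrays. T cell and Treg markers fell in 9 of 10 tested genes with 4 arrays, beside 10.3% of all probe sets. Erythroid and platelet markers averaged 5.26, 5.28 and 5.28 in knockout, against 5.19, 5.16 and 5.98 in WT, and 0 of 4 passed in limma. Among them Pf4 and Ppbp were under the level of 5.18 on every array. The part of these cell types in the ER gene differences was not tested. In such bulk RNA, more cells of a type and more RNA per cell cannot be told apart. The difference between 3' and 5' control probe sets, a sign of RNA quality, was 0.10, 0.17 and 0.08 for Gapdh in knockout and 0.07, -0.02 and 0.23 in WT. For Actb it was 0.59, 0.66 and 0.66 in knockout and 0.59, 0.46 and 0.64 in WT. The part of RNA quality was not tested.

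**Figure D4:**
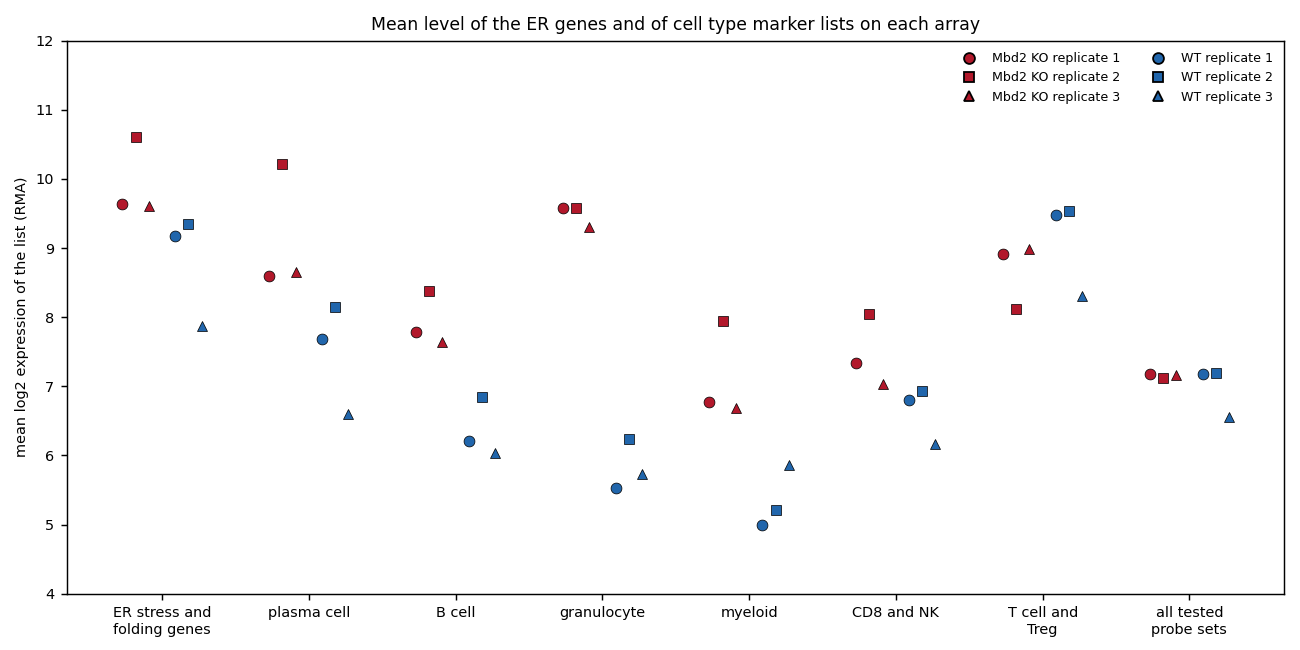
Mean log2 expression on each array of the 10 ER genes, of 6 cell type marker lists and of all tested probe sets, with knockout arrays in red left of WT arrays in blue. Knockout replicate 2 (red square) is highest for the ER genes (10.61) and for the plasma cell (10.22), B cell (8.38), myeloid (7.95) and CD8 and NK (8.05) markers. It is lowest among knockout arrays for T cell and Treg markers (8.12).

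The rest of the pathway was described with 7 lists of ER genes, holding 122 genes with a probe set, of which 116 were bright enough to be tested. With 6 arrays 0 of these passed in limma, 108 differences were above 0 and 8 below, and 9 were higher and 0 lower at an unadjusted p under 0.05, beside 3.48% and 0.597% of all probe sets. With 5 arrays 0 passed, and 14 were higher and 4 lower at an unadjusted p under 0.05, beside 6.95% and 14.6% of all probe sets. With 4 arrays 19 rose and 2 fell. As shares of the 116 this sets 16.4% beside 8.37% of all probe sets for rises and 1.72% beside 10.3% for falls.

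Further folding factors of the ER were among the rises. Of 18 tested chaperones and co-chaperones, 5 rose and 0 fell in the 4-array fit, on the brightest probe set of each gene. These shares of 27.8% and 0% stand beside 8.37% and 10.3% of all probe sets. Creld2, an ER-resident protein induced by ER stress, was at 8.39, 10.51 and 8.49 in knockout, against 7.26, 7.54 and 6.34 in WT (4-array difference 1.04, limma adjusted p = 0.00218). The prolyl isomerase genes Fkbp11 and Fkbp2 rose by 0.69 and 0.58, Hyou1, the nucleotide exchange factor of BiP, by 0.42 and the secreted ER factor Manf by 0.42. Canx, the membrane-bound partner of calreticulin, was at 0.24 (limma adjusted p = 0.0698). Dimmer probe sets of Pofut2 were lower (-0.279 and -0.266, limma adjusted p = 0.0441 and, when rounded, 0.05). A dimmer probe set of Ppib was higher (0.402, limma adjusted p = 0.0199). Among 11 tested genes of oxidative folding, 3 rose and 0 fell (27.3% and 0%, beside 8.37% and 10.3% of all probe sets). The 3 were Prdx4 by 0.38, Erp29 by 0.36 and Ero1b by 0.32. Txndc5, a disulfide isomerase abundant in plasma cells, was at 9.67, 11.84 and 9.36 in knockout, against 8.15, 8.99 and 6.91 in WT. Its difference of 0.94 lay at the threshold (limma adjusted p = 0.05 when rounded) and did not pass, although a dimmer probe set of the gene did (0.73, limma adjusted p = 0.0289). P4hb, the founding disulfide isomerase, was at 0.30 (limma adjusted p = 0.0502). Ero1a, which reoxidizes disulfide isomerases, had a dimmer probe set that was lower (-0.55, limma adjusted p = 0.0118).

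Of the sensors and transcription factors of the UPR, 3 of 9 tested rose in the 4-array fit and 0 fell. These shares of 33.3% and 0% stand beside 8.37% and 10.3% of all probe sets. Xbp1 was at 11.05, 12.62 and 10.96 in knockout, against 10.29, 10.64 and 8.63 in WT, with no overlap (0.54, limma adjusted p = 0.0286). The arrays do not tell its spliced form from the unspliced one. Creb3l2, an ER-anchored transcription factor, rose by 0.72 (limma adjusted p = 0.00905), and Bhlha15, a transcription factor of secretory cells, by 0.55 (limma adjusted p = 0.0097). The sensor genes did not pass, with 0.12 for Eif2ak3, 0.10 for Atf6 and 0.03 for Ern1. Mbtps1, the protease that cuts Atf6, was at -0.17 (limma adjusted p = 0.181).

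Among 18 tested genes of ER-associated degradation 3 rose and 2 fell in the 4-array fit. These shares of 16.7% and 11.1% stand beside 8.37% and 10.3% of all probe sets, so the share of falls was near that of all probe sets. The rises were of Derl3 by 1.07 (limma adjusted p = 0.0105), Sel1l by 0.56 and Syvn1 by 0.37. Derl3, a channel component restricted largely to secretory cells, was at 7.53, 9.75 and 7.40 in knockout, against 6.11, 6.68 and 7.38 in WT. Knockout replicate 3 and WT replicate 3 lay within 0.02 of each other. The 2 that fell were Herpud2, the paralogue of Herpud1, and Ufd1, a cofactor that extracts proteins for the proteasome. Herpud2 was at 8.08, 8.18 and 8.02 in knockout, against 8.41, 8.44 and 5.33 in WT (-0.38, limma adjusted p = 0.0175). Its 6-array difference was 0.69, opposite in sign, as was that of Ufd1 (0.18, against -0.31 with 4 arrays). Edem1 was at 0.23 with 4 arrays on its brightest probe set, while a dimmer one was lower (-0.34, limma adjusted p = 0.0248).

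Of 21 tested genes of the amino acid and CHOP arm 1 rose (4.76%, beside 8.37% of all probe sets) and 0 fell in the 4-array fit. That gene was Atf3, a stress-induced transcription factor, at 6.16, 7.15 and 5.96 in knockout, against 5.18, 5.54 and 5.61 in WT (0.70, limma adjusted p = 0.0163). Over the 21 genes 16 differences were above 0 and 5 below, with a median of 0.15 beside -0.03 over all probe sets. At an unadjusted p under 0.05, 7 were higher and 2 lower, beside 14.4% and 20.8% of all probe sets. The Atf4 and CHOP targets Trib3, Asns and Chac1 were at 0.04, 0.19 and 0.24, and none passed. Chac1 was at 6.85 in knockout replicate 2 and at 4.77 to 5.32 elsewhere. Ddit4, an inhibitor of growth signalling, was at 0.51 (limma adjusted p = 0.057), and Ppp1r15a, which restores translation after stress, was at -0.30 (limma adjusted p = 0.102). Shmt2 did not pass on its brightest probe set (0.361, limma adjusted p = 0.0591), but a dimmer one rose (0.385, limma adjusted p = 0.0185). The ATF4-type element occurred in 8 of the 23 promoter windows available for this list (Atf3, Trib3, Asns, Chac1, Nupr1, Slc7a11, Vldlr and Aars) and ERSE in 0. ERSE occurred in Canx, Dnajc3 and Creld2 among 15 chaperone genes, in Ero1b among 11 genes of oxidative folding and in Syvn1 and Derl3 among 15 genes of degradation. It was also in 0 of 9 windows of UPR sensors and factors, 0 of 20 of import and glycosylation and 0 of 15 of ER-Golgi transport.

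Among 22 genes of protein import and glycosylation, 4 rose in the 4-array fit and 0 fell (18.2% and 0%, beside 8.37% and 10.3% of all probe sets). The 4 that rose were the translocon-associated genes Ssr2 and Ssr4 (0.34 each) and the oligosaccharyltransferase genes Stt3b (0.37) and Rpn1 (0.36). Of 17 genes of retrieval and ER-Golgi transport 0 passed in limma with any of these sets of arrays. At an unadjusted p under 0.05 with 4 arrays, 2 were higher and 2 lower, beside 14.4% and 20.8% of all probe sets. The cargo receptor gene Lman1 was at 0.36 and the coat genes Sec13 and Sec24c at 0.19 and -0.18.

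**Figure D5:**
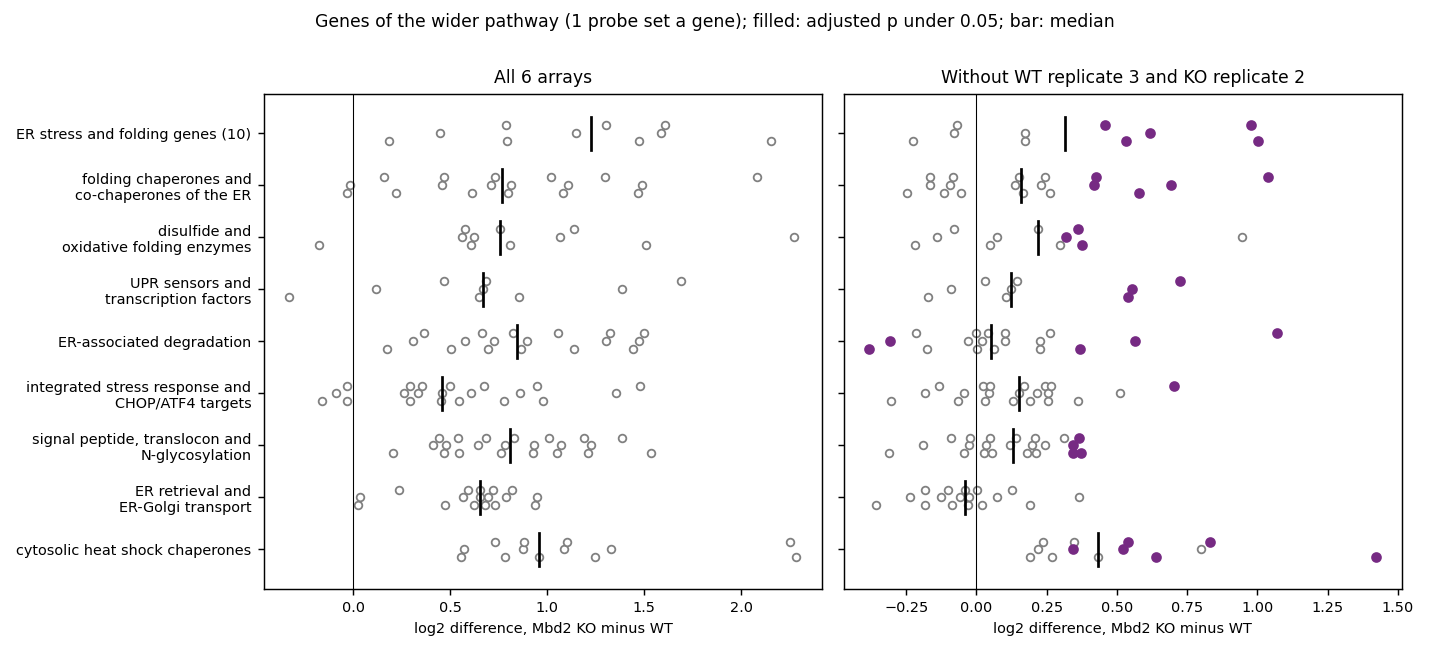
Log2 differences, knockout minus WT, of the 10 ER genes and of the wider pathway lists, 1 probe set a gene, with all 6 arrays (left) and without WT replicate 3 and knockout replicate 2 (right). Filled points passed an adjusted p of 0.05 and bars are list medians. On the left no point is filled, and on the right the medians of the ER lists run from -0.04 (ER-Golgi transport) to 0.31 (the 10 ER genes).

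Cytosolic and mitochondrial chaperones, many of them targets of heat shock factors, gave 6 rises among 13 tested genes in the 4-array fit and 0 falls, beside 8.37% and 10.3% of all probe sets. Their median was 0.43, beside -0.03 over all probe sets. Hsph1, a nucleotide exchange factor of the HSP70 system, was at 10.68, 11.51 and 10.93 in knockout, against 9.10, 9.67 and 7.50 in WT (1.42, limma adjusted p = 0.00499). Hsp90aa1 was at 11.55, 11.46 and 11.44 in knockout, against 10.48, 10.84 and 9.14 in WT. It was not highest in knockout replicate 2, unlike Hsp90b1, and nor were Hspa4, Hspa4l, Hspa9, Hspd1 and Hspe1. The other tested genes of the list were highest there, as was the list mean (9.13, 9.58 and 8.97 in knockout). Hspa1a was at 5.56, 8.41 and 5.25 in knockout and Hspa1b at 7.74, 10.40 and 6.84. In both, knockout replicate 2 exceeded the mean of the other knockout arrays by more than in any of the 10 ER genes. Hspd1 and its partner Hspe1 rose by 0.64 and 0.54. Hspa8 rose on its brightest probe set (0.344, limma adjusted p = 0.0242) and on dimmer ones (0.506 and 0.295). Another dimmer probe set of Hspa8 was lower (-0.381, limma adjusted p = 0.0344). In the 5-array fit the limma adjusted p was 0.0518 for Hsp90aa1 and 0.0572 for Hsph1, beside 0.136 for Sdf2l1, the smallest of the 10 ER genes. No test of the difference between these groups of genes was made.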

How the data were processed

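Biotin-labelled RNA of CD4+CD25+ Treg was measured on 6 single-colour arrays, 3 from MBD2-/- and 3 from WT mice, grouped by sample title. The deposited values are log2 expression per probe set, made by the authors with RMA (background correction, quantile normalization, probe summary) per the submitters' processing notes. The notes do not say which arrays were normalized together. There are no detection calls, and the number of arrays limits the precision.

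Of 22690 probe sets, 64 controls were left out. Symbols were updated by gene ID through RefSeq GRCm38.p6 (20351 of 20380 single symbols). A filter removed the dimmest 40% by mean over the arrays (log2 under 5.18), which kept 16 of the 19 probe sets of the 10 genes. The other 13576 entered limma 3.58.1 under R 4.3.3 (group only, Benjamini-Hochberg over all, threshold 0.05), a fit tested on simulated data. The 5-array and 4-array fits used the same probe sets. Their left-out arrays were chosen by correlation, so the arrays kept are those most alike, which narrows the spread behind their p-values. The brightest probe set stands for a gene.

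The 10 genes, 8 pathway lists and 7 marker lists (213 of 228 symbols matched) were chosen with earlier results of these data known. Named were the 10 genes, Mbd2, Xbp1, Jchain, list genes past the threshold in any of these fits, and up to 3 per list by smallest p with 5 arrays. Other genes named with values (Eif2ak3, Atf6, Ern1, Trib3, Asns, Chac1, Pou2af1 and dimmer probe sets) were picked after their values were seen. So were Sdc1, Tnfrsf17, Ebf1, Fcrla, Pax5, Cd8a, Prf1, Hspa1a and Hspa1b. The 4 motifs reported were chosen after the promoters of the 10 genes had been searched with 8 patterns. The other 4 were a shorter ERSE ending in CCA, the UPRE with any last base, and CCAAT and CCACG alone. Their matches are not reported. Alternatives changed filters, variance models, array weights, normalization, the replicate block, arrays, thresholds and probe set averaging. Figures used matplotlib 3.10.9.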

Additional observations from a re-analysis of the deposited data

How the results depend on the processing

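The fit of all arrays rests on 3 in each group. Every call among the 10 ER genes and the named genes of the ER lists at the adjusted threshold comes from fits in which WT replicate 3 and knockout replicate 2 were left out, leaving 2 arrays in each group, or arrays were weighted. With all 6 arrays 14 probe sets passed, and the count was 8 without a filter, 2324 with array weights, 2537 without WT replicate 3 and knockout replicate 2, and 524 at an unadjusted p under 0.05 with at least 1.5-fold. Leaving out 1 array at a time gave 0 to 190 probe sets, with 190 without WT replicate 3, 0 without knockout replicate 1 or 2 and 3 without knockout replicate 3. Of the 10 ER genes 0 passed with 6 arrays and 0 in each fit without 1 array. The count of higher genes was 5 without both arrays, 4 with array weights and 5 at the unadjusted threshold, and 0 of the 10 passed as lower under any alternative. Their median difference was 1.23, with a range of 0.61 to 1.59 without 1 array. It was 0.31 without both arrays and 0.29 with array weights. Array weights gave WT replicate 3 a weight of 0.0288, so that fit nearly leaves the array out. Signs turned under several alternatives, most of them with WT replicate 3 left out or weighted down. Without both arrays the differences were -0.23 for Ddit3, -0.07 for Atf4, -0.081 for Dnajb9, -0.17 for Mbtps1, -0.31 for Ufd1, -0.38 for Herpud2 and -0.18 for Sec24c. With array weights they were -0.17, -0.037, -0.21, -0.14, -0.31, -0.36 and -0.16 in the same order. After quantile normalization again Atf4 was at -0.18 and Sec24c at -0.36. Without 1 array at a time the ranges were -0.03 to 0.69 for Ddit3, -0.082 to 0.33 for Atf4, 0.35 to 2.14 for Dnajb9, -0.27 to 1.17 for Mbtps1, -0.41 to 0.48 for Ufd1, -0.34 to 1.22 for Herpud2, -0.26 to 0.19 for Sec24c and -0.40 to 0.14 for Ppp1r15a (-0.089 with all arrays). Ppp1r15a turned without WT replicate 2 (0.139) and without knockout replicate 2 (0.011), and Sec24c (0.024 with all arrays) also without knockout replicate 3 (-0.035). Why these signs turned was not tested. The remaining alternatives turned no sign of the named genes. Deviations of same-numbered arrays correlated at 0.150, -0.092 and -0.141, within the -0.213 to 0.207 of arrays with different numbers. With 3 arrays in each group these values cannot tell whether the numbers pair samples. With the replicate number as a block 10 probe sets and 0 of the 10 genes passed.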
